A study of Mus musculus with 1 sample.

Results

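Laminins are the cross-shaped glycoproteins of the basement membrane, the thin sheet of matrix that underlies epithelia and surrounds muscle, fat and nerve cells. Each laminin is a trimer of 1 alpha, 1 beta and 1 gamma chain, and is named after the numbers of its chains, so that laminin-511 holds the products of Lama5, Lamb1 and Lamc1. During assembly a beta and a gamma chain pair first through a coiled coil, and the pair is held in the cell until an alpha chain joins it. The alpha chain carries the globular domains at the end of the long arm that integrins and dystroglycan bind, while the short arms of most chains join laminins into a network.

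The 9 laminin chain genes described here are the rows named Lama1, Lama2, Lama3, Lama4, Lama5, Lamb1, Lamb2, Lamb3 and Lamc1, chosen by name, of 24214 rows in the deposited table. A further gamma chain gene, Lamc3, is given beside them, since no trimer is complete without a gamma chain. The table comes from RNA sequencing of 1 fibroblast culture, labelled as expanded in vitro from normal mouse pancreas. By its labels the animal was of mixed C57BL/6 and BALB/c background, negative for a Cre transgene written tf1acre and floxed at the gene spelled Tgfrb2. The series compared cancer-associated with normal fibroblasts, but 1 library was analysed here, so no difference between conditions was tested. Intervals are at the 95% level and cover counting error, not the variation between cultures.

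The table's value column carries a CAF code although the sample is labelled normal fibroblast, and which of these it holds cannot be told apart here. From its values 52494688 whole reads were recovered. The 11 genes of the fibroblast marker list were all detected at 10 reads or more, a limit that 67.6% of protein-coding genes passed. Their median was 159 reads per 1000000 reads per kb of exonic length (CPM per kb below). Fap, a fibroblast surface protease gene, was the lowest with 29 reads. The 4 myofibroblast markers had a median of 814 CPM per kb. The 6 mesothelial markers were all detected as well, at a median of 36.6 CPM per kb and between 15.7 and 67.6. Of 6 acinar markers 5 were detected and the median was 28.9 CPM per kb, with the digestive enzyme gene Ctrb1 highest at 58.5 and the transcription factor gene Ptf1a at 6 reads. The 7 endothelial markers had a median of 0.0403 CPM per kb; Cldn5 was at 0, but Kdr, the gene of a VEGF receptor, had 9505 reads and 20.05 CPM per kb. Medians were 0.856 CPM per kb for 8 epithelial, 0.395 for 6 pericyte and 0.126 for 5 Schwann cell markers. They were 0.884 for 5 macrophage and 1.69 for 4 skeletal muscle markers. The highest members, in the same order, were Krt18 at 8.22, Mcam at 20.8, Erbb3 at 0.928, Lyz2 at 6.99 and Des at 18.9. Fewer cells of a type and less RNA per cell cannot be told apart in such a culture, and the part of each cell type in the laminin levels was not tested.

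The last 14 codons before the stop codon of the beta chain genes and of Lamc1 and Lamc3 are shown because this end of the chains holds the cysteines that tie a beta to a gamma chain, and a residue that integrin binding needs. They are given in the direction of the transcript, from the GENCODE M21 transcripts matched to the rows, on GRCm38. Capitals mark the cysteine codon in the beta chains and the third codon from the end in the gamma chains.
Lamb1: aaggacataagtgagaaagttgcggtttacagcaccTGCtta
Lamb2: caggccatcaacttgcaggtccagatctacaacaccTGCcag
Lamb3: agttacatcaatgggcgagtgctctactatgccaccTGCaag
Lamc1: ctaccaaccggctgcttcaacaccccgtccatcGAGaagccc
Lamc3: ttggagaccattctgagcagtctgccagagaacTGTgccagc

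Each of the 3 beta chain genes had a single cysteine codon in this stretch, at the second codon from the end; the C-terminal cysteines of the beta1 and gamma1 chains are known to join in a disulfide bond. Lamc1 had its cysteine codon at codon 10 from the end and the glutamate codon GAG at codon 3 from the end. That glutamate is known from work on recombinant human laminins to be needed for integrin binding. Lamc3 had the cysteine codon TGT at codon 3 from the end, and no glutamate codon there. The Lamb1 stretch lies at chr12:31329449-31329490 on the plus strand and the Lamc1 stretch at chr1:153221476-153221517 on the minus strand, each within 1 exon.

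All 9 chain genes, and Lamc3, had at least 10 reads, a limit that 67.6% of 20559 protein-coding genes passed. None had fewer than 50 reads, a limit passed by 57.7% of the protein-coding genes. Their levels fell into 3 tiers: Lamc1, Lamb1, Lamb2 and Lama5 above 29 CPM per kb, Lama2 and Lama4 at 7.33 and 2.04, and Lamb3, Lamc3, Lama3 and Lama1 below 0.3. For comparison, the median of the 13830 protein-coding genes with at least 10 reads and a length was 4.94 CPM per kb. A level above it was seen in 5 of these 10 laminin genes, all of them detected. By the definition of a median the same held for 6915 of the 13830 genes, so the laminin share is no excess over detected genes. Among all protein-coding genes with a length, detected or not, the share was 33.9%.

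Among the gamma chains, Lamc1 encodes the gamma1 chain shared by most laminins. Lamc1 (chromosome 1, 153218922 to 153332786 on GRCm38) had a deposited value of 41251.85, or 35076 reads and 668 CPM (reads per 1000000 reads, 661 to 675). Per length this was 80.8 CPM per kb (79.9 to 81.6). By reads it ranked 146 of the 23386 genes. Lamc1 was the most abundant of the laminin transcripts described here.

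Lamc3, a gamma chain of retina, brain surface and peripheral nerve, had 57 reads and 0.178 CPM per kb (0.135 to 0.231). Lamc1 thus held 99.8% of the summed level of Lamc1 and Lamc3 (99.7% to 99.8%).

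With exon unions the beta chain genes Lamb1 and Lamb2 were close to each other in level. Lamb1, the beta chain of most embryonic and many adult laminins (chromosome 12, 31265146 to 31329644), had a deposited value of 29748.70, or 25295 reads and 48.6 CPM per kb (48.0 to 49.2). Lamb2, known for the glomerulus of the kidney and the neuromuscular junction (chromosome 9, 108479847 to 108490530), had 15290.09, or 13001 reads and 40.7 CPM per kb (40.0 to 41.4). The 1.19-fold excess of Lamb1 (1.17 to 1.22) depends on the length chosen.

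Exonic length here is the union of all annotated exons, which includes retained introns, and for Lamb1 it is 9917 bases, against 5784 bases for the transcript that carries the accession in its row. By that transcript's length Lamb1 had 83.3 CPM per kb and Lamb2 44.0, a ratio of 1.89 (1.85 to 1.93). Lamb3, a beta chain of epithelia (chromosome 1, 193294353 to 193343878), was far lower under either length. It had a deposited value of 115.25, or 98 reads and 0.282 CPM per kb (0.229 to 0.344), and made up 0.315% of the beta chain level, against 54.2% for Lamb1 and 45.5% for Lamb2.

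The alpha chains spanned a wide range of levels. Lama5, the alpha chain most widespread in adult basement membranes (chromosome 2, 180176373 to 180225904), led with a deposited value of 20575.35, or 17495 reads and 29.3 CPM per kb (28.8 to 29.7). It held 75.4% of the summed alpha chain level (74.9% to 75.9%). By the length of the matched transcripts the share was 63.6%, because the exon unions of Lama2 and Lama4 are longer than their matched transcripts.

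Lama2, the alpha chain of muscle and peripheral nerve whose loss causes a congenital muscular dystrophy (chromosome 10, 26981285 to 27617191), came next. It had a deposited value of 7395.13, or 6288 reads and 7.33 CPM per kb (7.15 to 7.52), which is 18.9% of the alpha chain level. By its matched transcript of 9614 bases, in place of an exon union of 16338 bases, it had 12.5 CPM per kb and a share of 27.1%. Lama5 exceeded Lama2 by 3.99-fold (3.88 to 4.11) per exon union and by 2.35-fold (2.28 to 2.42) per matched transcript.

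Lama4, which lacks the N-terminal domain that the network needs and is known from vessels, fat and nerve (chromosome 10, 38965515 to 39110188), was lower again. It had a deposited value of 1520.66, or 1293 reads and 2.04 CPM per kb (1.93 to 2.16), and 4.07 CPM per kb by its matched transcript. Its share of the alpha chain level was 5.26% with exon unions and 8.86% with matched transcripts. Lama4 thus lay 14.3-fold below Lama5 (13.5 to 15.2) with exon unions and 7.18-fold below it with matched transcripts.

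Lama1, the alpha chain of the early embryo (chromosome 17, 67697127 to 67822645), and Lama3, an alpha chain of epithelia (chromosome 18, 12333417 to 12583013), were the lowest chains. Lama1 had a deposited value of 58.80, or 50 reads and 0.0984 CPM per kb (0.0730 to 0.130). Lama3 had 65.86, or 56 reads and 0.0993 CPM per kb (0.0750 to 0.129). They made up 0.253% and 0.256% of the alpha chain level. Of the 45 pairs among the 10 genes, that of Lama3 and Lama1 was the 1 pair whose ratio per length, 1.01 (0.677 to 1.51), had an interval reaching 1; the same held with matched transcripts.

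Exons of Lama2, Lama3 and Lamc3 overlap annotated antisense genes, by 631, 197 and 382 bases. Whether the counting used the strand is not given in the sources, so reads of such a partner cannot be told apart from those of the chain gene, which matters most for the low counts of Lama3 and Lamc3.

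**Figure D1:**
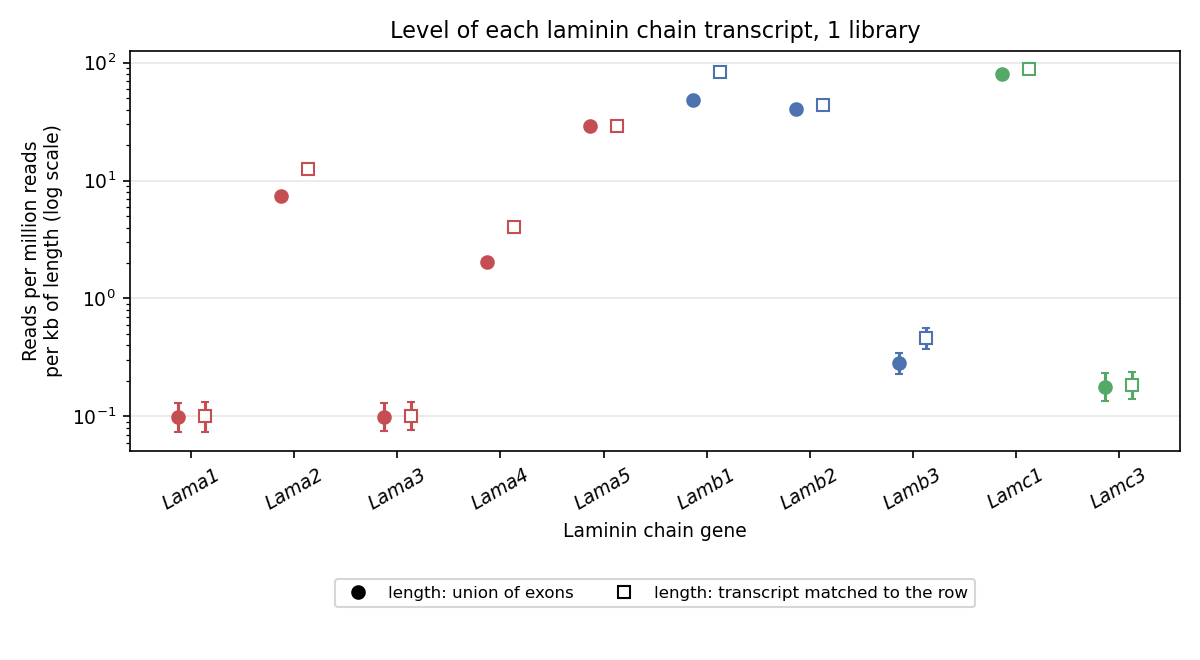
Level of each laminin chain gene in the 1 library, in reads per 1000000 reads per kb on a log axis, with exon unions (filled circles) and matched transcripts (open squares); red, blue and green mark alpha, beta and gamma chains, and bars are 95% Poisson intervals. Lamc1 stands highest at 80.8 CPM per kb with exon unions, and Lama1 and Lama3 lowest at 0.0984 and 0.0993.

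Because a trimer takes 1 chain of each kind, the summed levels of the 3 kinds were set side by side, with the sum of Lamc1 and Lamc3 for the gamma chains. The alpha chains summed to 38.8 CPM per kb, the beta chains to 89.6 and these gamma chains to 80.95. The alpha chain sum was thus 0.480 times the gamma chain sum (0.472 to 0.488) and 0.434 times the beta chain sum (0.427 to 0.441). Alpha chain transcripts were the scarcest kind under each of the 4 ways of dividing by length that were tried, with ratios to the gamma chains between 0.342 and 0.524, and without any division (0.717). The beta chain sum was 1.11 times the gamma chain sum (1.09 to 1.12) with exon unions, 1.45 times with matched transcripts and 0.965 times by coding length, so which of these kinds is more abundant is not settled.

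The level of Lamb1 alone was 1.25 times the summed level of the alpha chains, and that of Lamb2 alone 1.05 times; with matched transcripts the ratios were 1.81 and 0.957. Lamc1 was at 2.08 times the alpha chain sum. On transcript levels alone, Lamb1 could therefore supply a beta chain, and Lamc1 a gamma chain, for every alpha chain, and Lamb2 could do so for nearly all or all of them. The levels do not show how the alpha chains are split between Lamb1 and Lamb2.

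**Figure D2:**
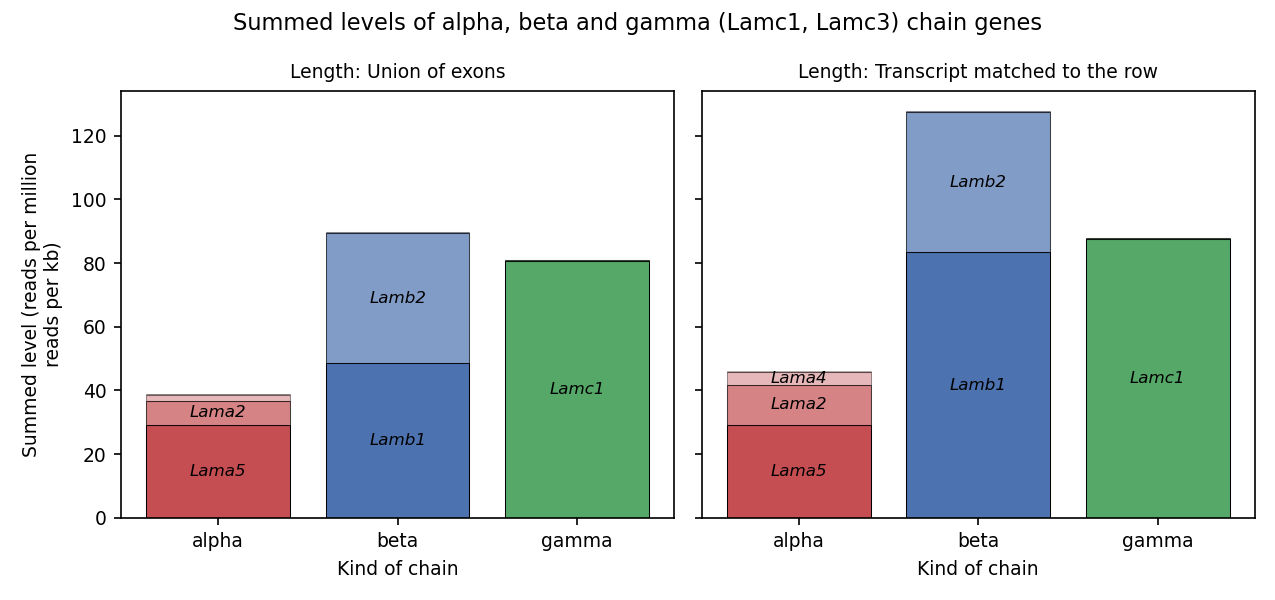
Summed levels of the alpha and beta chain genes, and of the gamma chain genes Lamc1 and Lamc3, in reads per 1000000 reads per kb, with exon unions (left) and matched transcripts (right); each bar segment is 1 gene, and segments of 3 or less carry no name. The alpha bar, at 38.8 with exon unions, is the lowest, and Lamb1 takes a larger part of the beta bar with matched transcripts.

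For 13 laminin trimers built from these chains, the level of the scarcest of the 3 chain transcripts was taken as the most that the levels allow. None of them contains Lamb3, so the beta chain was always the abundant Lamb1 or Lamb2. The scarcest chain was an alpha chain in 10 of the 13 trimers and a gamma chain in 3. Laminin-511 and laminin-521, both limited by Lama5, ranked highest at 29.3 CPM per kb (28.8 to 29.7), and their next scarcest chain stood 1.66-fold and 1.39-fold above it. Laminin-211 and laminin-221 followed, limited by Lama2 at 7.33 CPM per kb, or 12.5 with matched transcripts. Laminin-411 and laminin-421 were limited by Lama4 at 2.04 CPM per kb, or 4.07 with matched transcripts.

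The other 7 trimers had a scarcest chain at or below 0.178 CPM per kb. Laminin-213, laminin-423 and laminin-523 were limited by Lamc3 at that level. Laminin-311, laminin-321, laminin-111 and laminin-121 were limited by Lama3 or Lama1 near 0.1 CPM per kb, although their beta and gamma chains were abundant.

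The rank of each of the 13 trimers was the same with exon unions, longest transcripts, matched transcripts and coding lengths; without division by length Lamb2 became the scarcest chain of laminin-521. These are limits on transcripts of a culture. Translation, secretion and whether the chains were made in the same cell were not measured.

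**Figure D3:**
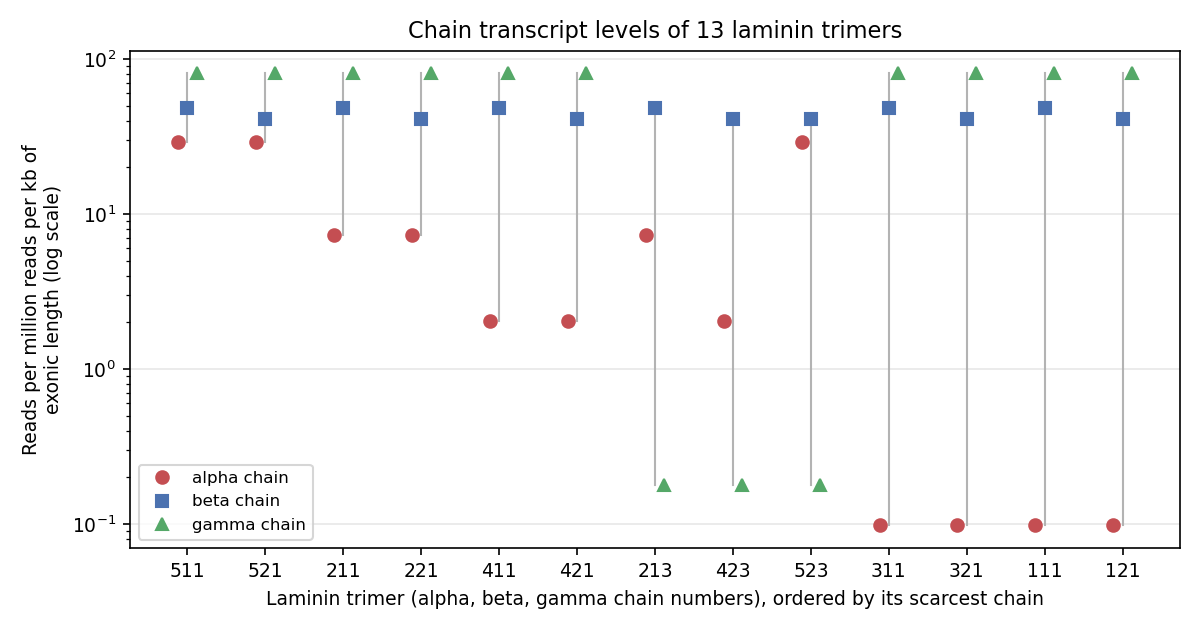
Level of the alpha (circles), beta (squares) and gamma (triangles) chain of each of 13 laminin trimers, in reads per 1000000 reads per kb of exonic length on a log axis, ordered by the scarcest chain. The scarcest chain of laminin-511 and laminin-521 lies at 29.3 and that of laminin-311 at 0.0993.

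All 14 laminin receptor genes of the list had at least 10 reads, as had 67.6% of protein-coding genes. Their median was 21.9 CPM per kb, against 4.94 for the protein-coding genes with at least 10 reads and 1.19 for all with a length. The lowest were Itga7, Itga2 and Itgb4, below the 4.94 CPM per kb of the median detected gene. Itgb1, the beta chain shared by most laminin-binding integrins, had 431 CPM per kb (428 to 434). Its laminin-binding partners Itga3 and Itga6 had 23.0 (22.4 to 23.5) and 15.3 (14.9 to 15.6) with exon unions, but 27.0 and 32.0 with matched transcripts, so their order depends on the length.

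The muscle integrin chain Itga7 was at 1.29 CPM per kb, and the hemidesmosome chain Itgb4, which pairs with Itga6, at 2.48 (2.32 to 2.65). Itga1 and Itga2, whose integrins bind collagens as well as laminins, were at 5.75 and 1.30. Itgb1 exceeded Itgb4 by 174-fold (163 to 186). Dag1, the gene of dystroglycan, which binds the globular domains of alpha chains through a sugar chain, had 94.5 CPM per kb (93.4 to 95.5).

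Cd151, a tetraspanin that associates with laminin-binding integrins, had 119.5 CPM per kb (117.8 to 121.3). The syndecans, cell surface heparan sulfate proteoglycans, had 180.0 CPM per kb for Sdc4, 44.5 for Sdc2 and 25.9 for Sdc1. Bcam, a receptor for the alpha chain that Lama5 encodes, had 7.31 CPM per kb, and Mcam, reported to bind laminin with the Lama4 chain, 20.8. Bcam thus lay below the level of Lama5, and Mcam above that of Lama4.

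Basement membrane proteins that bind or lie beside laminin ranged more widely. Each of the 12 genes of the list passed 10 reads, a limit that 67.6% of protein-coding genes passed. Their median was 29.1 CPM per kb. Nid1, the nidogen that links the gamma1 chain to collagen IV, had 479 CPM per kb (476 to 481), 5.93 times the level of Lamc1 (5.86 to 5.99). Nid2 was at 45.1 CPM per kb, and Nid1 exceeded it 10.6-fold (10.4 to 10.8). With matched transcripts Nid1 was at 6.22 times the level of Lamc1 and 11.4 times that of Nid2.

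The collagen IV genes Col4a1 and Col4a2, whose chains form the commonest collagen IV trimer, had 331 and 243 CPM per kb, while Col4a5 and Col4a6 had 51.6 and 8.44. Col4a3 and Col4a4, known from the glomerulus, had 0.201 and 0.0933. Hspg2, the perlecan gene, had 53.0 CPM per kb and Agrn, the agrin gene, 13.2, a ratio of 4.03 (3.92 to 4.14). With matched transcripts the ratio was 3.02 (2.94 to 3.10). The basement membrane zone collagens Col18a1 and Col15a1 were at 3.03 and 1.41. The list thus spanned genes far above Lamc1 and others of the same families near the level of Lama1.

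**Figure D4:**
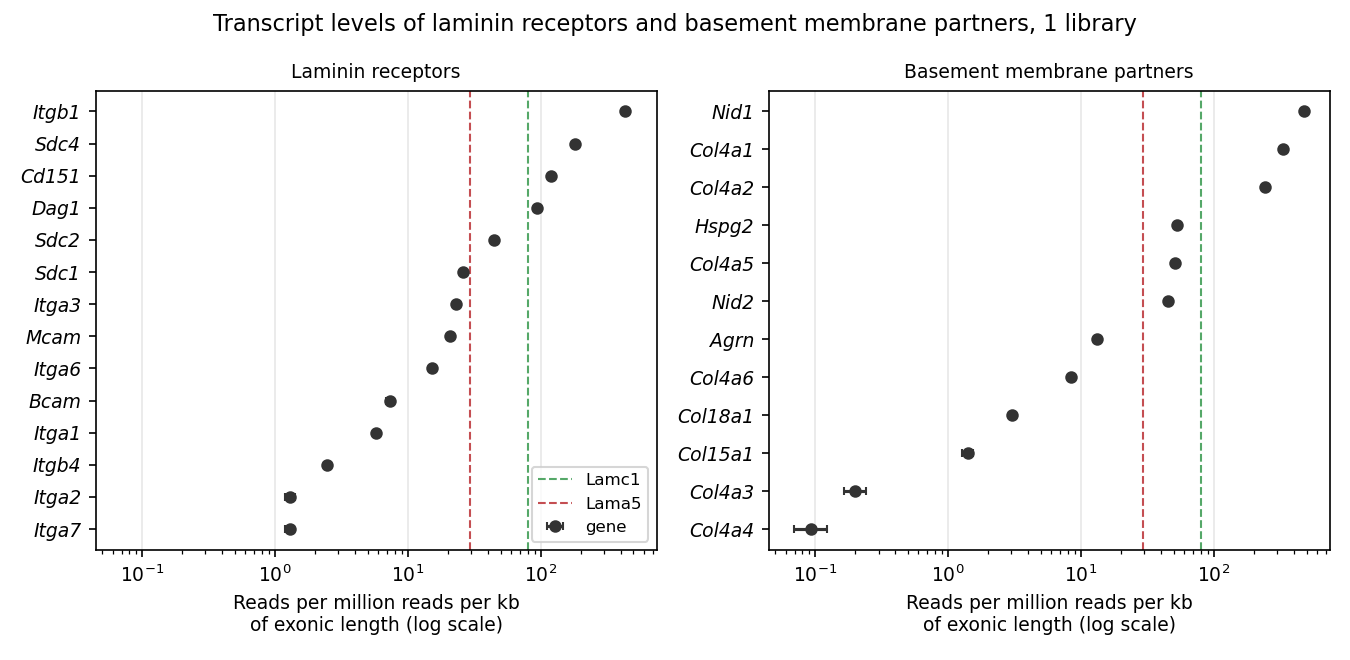
Levels of laminin receptors (left) and basement membrane partners (right) in reads per 1000000 reads per kb of exonic length on a log axis, with 95% Poisson intervals; dashed lines mark Lamc1 (80.8) and Lama5 (29.3). Itgb1 at 431 and Nid1 at 479 stand highest, and Col4a4 at 0.0933 lowest.

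The dystroglycan branch was measured through 2 further lists. Of 11 genes that build matriglycan, the laminin-binding sugar of dystroglycan, 10 had at least 10 reads, a limit passed by 67.6% of protein-coding genes. The primer enzyme gene B4gat1 had 19.5 CPM per kb (18.7 to 20.3), Pomgnt1 14.4 and Rxylt1 8.55; with matched transcripts Pomgnt1, at 28.9, lay above B4gat1, at 22.1. Pomt2 was at 3.56 CPM per kb and Pomgnt2 at 3.23, and Large2, a gene of a matriglycan polymerase, had 8 reads.

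Of 7 genes of the dystrophin complex, which ties dystroglycan to actin, 6 had at least 10 reads, as had 67.6% of protein-coding genes. Utrn, the gene of the dystrophin relative utrophin, led with 31.4 CPM per kb, against 2.97 for Dmd, the dystrophin gene, which was chosen after its value was seen. The sarcoglycan genes Sgcb and Sgce had 6.29 and 5.61 CPM per kb and Sgcd 1.58. With matched transcripts Sgce, at 33.5, lay above Sgcb, at 6.73, and Sgcd had 8.07. Dtna was at 0.173 with exon unions and 1.84 with its matched transcript, and Sgca, a sarcoglycan gene of striated muscle, had 5 reads.

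All 7 hemidesmosome genes had at least 10 reads, as had 67.6% of protein-coding genes. After Cd151, the plakin genes Plec and Dst were highest at 47.1 and 16.5 CPM per kb, and Itga6 was the middle member at 15.3. The lowest were Itgb4, Col7a1, the anchoring fibril collagen gene, and Col17a1, at 2.48, 1.95 and 0.219.

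Of 6 genes that share the laminin N-terminal domain but form no trimer, 4 had at least 10 reads. That share is close to the 67.6% of protein-coding genes. With exon unions Ntn4, a netrin known to bind laminin gamma chains and to disturb the network, was highest at 1.04 CPM per kb, followed by Ntng2 at 0.788 and Ntn3 at 0.735. With matched transcripts Ntng2 led at 1.97, against 1.07 for Ntn4. Ntn1, Ntng1 and Ntn5 had 41, 7 and 2 reads. Among 5 proteases that can cut laminin chains, Mmp2 and Mmp14 had 167 and 106 CPM per kb (182 and 243 with matched transcripts), Bmp1 21.7 and Tll1 11.05, while Plg, the plasminogen gene of the liver, had 2 reads.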

How the data were processed

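Per the labels' protocols, RNA of 1 culture was taken up in TRIzol and made into a SOLiD library. The authors' deposited signal has 1 value per row; all 20976 values above 0 are whole multiples of 1.18 within 0.01 of a read, and were taken as reads over a size factor of 0.850. DESeq and mm10 are named in the submitters' processing notes, with no role. No source used here gives the aligner, counter, strand setting or annotation. All measures are of the recovered reads, 52494688 in total, so that 1 read is 0.0190 CPM. Reads are not independent molecules, and a count test needs replicates and was not run.

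Copies of a gene were summed, which left 23386 genes; rows were matched to RefSeq GRCm38.p6 by accession (98.4% of rows), which gave coordinates and current symbols. Lengths come from GENCODE M21. Intervals are exact Poisson for levels, conditional binomial for ratios of 2 genes and delta-method for shares and ratios of sums. The members and lists were chosen with earlier results of these data known. Named were the laminin chains, all receptors and basement membrane partners, and the 3 highest and 3 lowest members of the other lists on laminin biology; the few cell type markers named were chosen after their values were seen; some items are not reported here, and the sums and counts leave them out. On simulated libraries of 23386 genes the reads were recovered for 100% of genes. Alternatives were other lengths, no division by length, detection at 1 or 50 reads and other totals. The software was scipy 1.17.1, numpy 2.4.6 and pandas 2.3.3 under Python 3.11.15, with figures by matplotlib 3.10.9.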

Additional observations from a re-analysis of the deposited data

How the results depend on the processing

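No paired analysis was possible because there is 1 sample, and leaving out a replicate was likewise impossible. All 10 laminin genes stayed detected at 1 and at 50 reads. The partner genes detected were 54 of 59 at 10 reads, 59 at 1 read and 53 at 50. Of protein-coding genes, 67.6% had at least 10 reads and 57.7% at least 50. The share of Lama5 in the alpha chain level was 75.4% with exon unions, 63.6% with longest and with matched transcripts, 63.0% by coding length and 69.5% with no division. The share of Lamb1 was 54.2% with exon unions and 65.2%, 65.2%, 65.4% and 65.9% in the same order. The share of Lamc1 in the sum of Lamc1 and Lamc3 stayed at 99.8% under each length. The alpha chain sum over the gamma chain sum was 0.524 with longest and with matched transcripts, 0.342 by coding length and 0.717 with no division. The beta chain sum over the gamma chain sum was 1.45 with longest and with matched transcripts, and turned below 1, to 0.965, by coding length, which leaves out untranslated parts, long in Lamc1. The scarcest chain of laminin-511, Lama5, was at 29.9 by coding length, 333 CPM with no division, 31.9 with the total of protein-coding genes and 39.2 without the 100 most abundant genes in the total. The matched transcripts were chosen after seeing the data.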
